A study of Homo sapiens and Canis lupus familiaris with 27 samples.

Results

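The genes of the cyclin-dependent kinase inhibitors CDKN1A, CDKN1B, CDKN1C, CDKN2A, CDKN2B, CDKN2C, CDKN2D and CDKN3 were followed in prostate carcinoma cell lines treated with PDA-66. They were chosen by name, as the rows of the count tables that carry 1 of these 8 symbols, out of 25300 distinct gene names. All 8 were listed among the 23708 genes of the PC-3 and LNCaP tables, and 3 of them (CDKN2B, CDKN2C and CDKN3) among the 16028 genes of the CT1258 table. PC-3 and LNCaP are established human cell lines from metastases of prostate carcinoma, and CT1258 is an established canine prostate carcinoma line. PDA-66 is an indolylmaleimide, and cells received it at 15 µM for 12 h or 24 h. Controls received 0.15% DMSO for 24 h, so the 12 h samples had no control of their own time, and time in culture and PDA-66 cannot be told apart at 12 h. Each group held 3 samples described as independent biological replicates, except the PC-3 controls, of which the study excluded replicate 1 and n = 2 remained. Each line stands for a single tumor grown in culture, and each was grown in a different medium. In comparisons between lines, the line, its genotype, its medium and library batch cannot be told apart.

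The inhibitors hold back the kinases that drive the cell cycle. The CIP/KIP proteins p21 (CDKN1A), p27 (CDKN1B) and p57 (CDKN1C) bind complexes of CDK2 with cyclin E or A, and CDKN1A is known to be induced by DNA damage. The INK4 proteins p16 (CDKN2A), p15 (CDKN2B), p18 (CDKN2C) and p19 (CDKN2D) bind CDK4 and CDK6 and keep the retinoblastoma protein active. CDKN2A also encodes ARF, another growth suppressor, and it lies beside CDKN2B in a locus that tumors often lose. CDKN3 encodes a phosphatase that acts on CDK1 and CDK2, and its mRNA is known to be high in dividing cells.

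Total counts per sample were from 14650839 to 18091755 for PC-3, from 11923105 to 14741883 for LNCaP and from 7203534 to 20976950 for CT1258, where the controls had 2.639 times the depth of the PDA-66 samples. LNCaP PDA-66 12 h replicate 2 stood apart: the chi-square per degree of freedom against its fellow replicates was 216 and 170, and 7.46 between those replicates. CT1258 DMSO replicate 2 also stood apart, with 50.7 and 50.9 against its fellows and 3.81 between those. It was 35.1 between the PC-3 controls, on which every PC-3 change against DMSO rests, and 1.93 to 4.59 among the PC-3 12 h samples. PC-3 24 h replicate 3 gave 15.8 and 9.04 against its fellows, which gave 3.11 between them. LNCaP DMSO replicate 1 gave 34.5 and 31.6 against its fellows, and these gave 16.4 between them. The luminal prostate markers KLK3, KLK2, TMPRSS2 and FOLH1 summed to between 1471 and 2263 CPM (counts scaled to the size of the library) in LNCaP. There 1 of the 4 passed 0.05 at 12 h: TMPRSS2 fell from 453 to 158 CPM (log2 -1.52, adjusted p = 0.012). At 24 h it was at 232 CPM (adjusted p = 0.0797). In PC-3 the luminal markers summed to between 0.0676 and 0.671 CPM, with all 4 under 1 CPM in every group. In CT1258 the 3 of them that were listed summed to 6.17 to 14.5 CPM in the controls, 3.46 to 4.68 CPM at 12 h and 4.2 to 5.7 CPM at 24 h, with KLK2 at 3.33 to 10.8 CPM in the controls and at 0 in every treated sample. There the 1 epithelial marker listed was at 0 to 0.262 CPM. In PC-3 the 5 epithelial markers summed to 987 to 1088 CPM in the controls, 658 to 727 CPM at 12 h and 680 to 908 CPM at 24 h. The summed markers of other cell types in PC-3 went from 127 to 164 CPM in the controls to 83.3 to 91.1 CPM at 12 h and 81.5 to 98.7 CPM at 24 h, mostly from CD68 at 65.1 to 134 CPM, while CD3E stayed at or near 0. In LNCaP they summed to 61.6 to 78.8, 38.1 to 158 and 40.5 to 45.9 CPM, the 158 CPM in a PDA-66 12 h library with COL1A1 at 125 CPM. Of 4 tested there, 1 passed 0.05 at each time. This was VWF, which fell from 30.2 to 8.29 CPM at 12 h (log2 -1.87, adjusted p = 0.0228). At 24 h VWF was at 6.84 CPM (log2 -2.14, adjusted p = 0.0318). In CT1258 the 5 listed summed to 8.3 to 9, 7.46 to 10.4 and 10.4 to 11.9 CPM. The part of these markers in the changes below was not tested. In bulk RNA, fewer cells with a transcript and less transcript per cell cannot be told apart.

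The members lie on 7 human chromosomes, and CDKN2A and CDKN2B are neighbours. On GRCh37, the build of the human counts, CDKN2A spans chr9:21967751-21995300 and CDKN2B chr9:22002902-22009304, both on the minus strand. CDKN1A spans chr6:36644237-36655114, CDKN1B chr12:12838432-12875303, CDKN2C chr1:51426417-51440306 and CDKN3 chr14:54863567-54886936, all on the plus strand. CDKN2D (chr19:10677136-10679735) and CDKN1C (chr11:2904443-2907005) lie on the minus strand. The promoters shown here come from a table of RefSeq promoters on GRCh38.p14, in which 7 of the 8 members were matched by symbol, and are given so that members with opposite changes can be read side by side. CDKN2C had 3 starts, of which the one with the most matches is shown. Each is the 250 bases before a transcription start on the gene's strand. The following motifs were searched on both strands, with overlapping matches counted separately: the E2F site (TTTCCCGC, TTTCGCGC, TTTGCCGC or TTTGGCGC), the CHR element of cell cycle genes (TTTGAA), the GC box (GGGCGG) and CCAAT. Capitals mark a match.
CDKN1A: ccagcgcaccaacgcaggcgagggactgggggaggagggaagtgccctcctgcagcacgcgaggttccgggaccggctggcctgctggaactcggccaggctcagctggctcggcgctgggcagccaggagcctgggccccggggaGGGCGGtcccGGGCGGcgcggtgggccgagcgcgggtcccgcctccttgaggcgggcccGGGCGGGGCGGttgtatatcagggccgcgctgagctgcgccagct
CDKN1B: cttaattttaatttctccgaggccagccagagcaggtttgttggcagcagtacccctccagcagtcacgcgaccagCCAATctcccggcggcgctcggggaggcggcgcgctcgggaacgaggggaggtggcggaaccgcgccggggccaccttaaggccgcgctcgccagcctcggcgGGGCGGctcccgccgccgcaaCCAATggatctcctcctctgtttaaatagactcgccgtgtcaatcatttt
CDKN2A, downstream start: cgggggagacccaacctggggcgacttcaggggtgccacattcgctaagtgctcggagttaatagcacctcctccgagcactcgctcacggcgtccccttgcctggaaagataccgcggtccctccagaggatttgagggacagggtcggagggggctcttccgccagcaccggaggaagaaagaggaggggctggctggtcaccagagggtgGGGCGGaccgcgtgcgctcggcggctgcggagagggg
CDKN2A, upstream start: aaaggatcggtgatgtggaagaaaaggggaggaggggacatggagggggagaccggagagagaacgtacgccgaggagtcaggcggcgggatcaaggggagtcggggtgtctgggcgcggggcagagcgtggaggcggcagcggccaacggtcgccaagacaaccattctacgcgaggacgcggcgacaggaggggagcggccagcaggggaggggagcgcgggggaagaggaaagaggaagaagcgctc
CDKN2B: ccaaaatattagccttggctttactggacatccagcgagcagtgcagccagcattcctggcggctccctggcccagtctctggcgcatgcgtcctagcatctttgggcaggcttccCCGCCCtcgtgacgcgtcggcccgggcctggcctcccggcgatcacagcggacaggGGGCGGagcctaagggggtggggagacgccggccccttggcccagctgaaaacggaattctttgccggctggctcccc
CDKN2C, middle start: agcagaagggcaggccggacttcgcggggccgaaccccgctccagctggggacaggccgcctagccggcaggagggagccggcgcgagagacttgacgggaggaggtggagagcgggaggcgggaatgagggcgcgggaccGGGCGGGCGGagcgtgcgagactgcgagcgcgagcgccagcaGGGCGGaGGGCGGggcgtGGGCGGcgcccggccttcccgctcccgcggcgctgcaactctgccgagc
CDKN2D: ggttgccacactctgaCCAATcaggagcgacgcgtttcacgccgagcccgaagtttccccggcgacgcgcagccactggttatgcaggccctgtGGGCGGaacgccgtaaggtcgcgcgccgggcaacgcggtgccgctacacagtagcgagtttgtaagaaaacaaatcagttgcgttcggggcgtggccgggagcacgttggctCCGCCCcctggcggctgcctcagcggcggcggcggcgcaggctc
CDKN3: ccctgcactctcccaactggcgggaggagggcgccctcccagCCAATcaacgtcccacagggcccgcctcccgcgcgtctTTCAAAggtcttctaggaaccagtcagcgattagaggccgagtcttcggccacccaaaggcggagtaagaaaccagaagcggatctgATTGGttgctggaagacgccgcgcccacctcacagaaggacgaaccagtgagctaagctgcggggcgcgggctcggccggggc
The CDKN1A sequence (chr6:36678464-36678713) held 4 GC boxes and that of CDKN1B (chr12:12717118-12717367) held 1 GC box and 2 CCAAT boxes. Of the CDKN2A starts, the downstream promoter (chr9:21974858-21975107) held 1 GC box and the upstream one (chr9:21995325-21995574) had no match. The CDKN2B promoter (chr9:22009306-22009555) held 2 GC boxes, and the middle of the 3 CDKN2C promoters (chr1:50968456-50968705) held 5. Of the CDKN2C promoters not shown, the first (chr1:50960495-50960744) had no match and the last (chr1:50969995-50970244) held 1 GC box and 1 CCAAT box. The CDKN2D promoter (chr19:10568980-10569229) held 2 GC boxes and 1 CCAAT box. The CDKN3 promoter (chr14:54396757-54397006) was the only one of the 10 promoters of the members with a CHR match, at 170 bases before the start, and it held 2 CCAAT boxes. No member promoter held the E2F letters, which 2.79% of 35116 RefSeq promoters of this length hold. The CHR letters were in 13.3% of them, the GC box in 42.6% and CCAAT in 32%. These matches describe letters and not binding.

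Without PDA-66, the human lines differed in CDKN2A and CDKN2B in 1 direction and in CDKN1A in the other. PC-3 had high CDKN2A and CDKN2B and little CDKN1A, and LNCaP had high CDKN1A, little CDKN2A and almost no CDKN2B. Levels between genes were compared as CPM per kilobase of the main transcript. In PC-3 controls CDKN2A was at 207 ± 6.6 CPM per kb (SD, n = 2), followed by CDKN2C at 88.8 ± 1.42, CDKN2B at 74 ± 11.6 and CDKN3 at 69.7 ± 29. Then came CDKN1B at 27.1 ± 0.383, CDKN1A at 21.2 ± 3.83, CDKN2D at 11.1 ± 0.207 and CDKN1C at 2.76 ± 0.12 CPM per kb. Neighbours in this order did not overlap between samples, except CDKN2B and CDKN3. The CDKN3 samples, at 49.2 and 90.3 CPM per kb, also enclosed those of CDKN2C at 87.8 and 89.9, so these are not ordered. In LNCaP controls CDKN1A came first with 173 ± 132 CPM per kb (SD, n = 3), ahead of CDKN1B at 57.6 ± 13.9, CDKN3 at 33.7 ± 14.8 and CDKN2C at 15.6 ± 7.92. CDKN2D followed at 5.38 ± 1.57, CDKN2A at 5.04 ± 0.221, CDKN1C at 1.58 ± 0.483 and CDKN2B at 0.546 ± 0.0942 CPM per kb. Here the samples of CDKN1A and CDKN1B, of CDKN2A and CDKN1C, and of CDKN1C and CDKN2B did not overlap, and the other neighbours did.

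**Figure D1:**
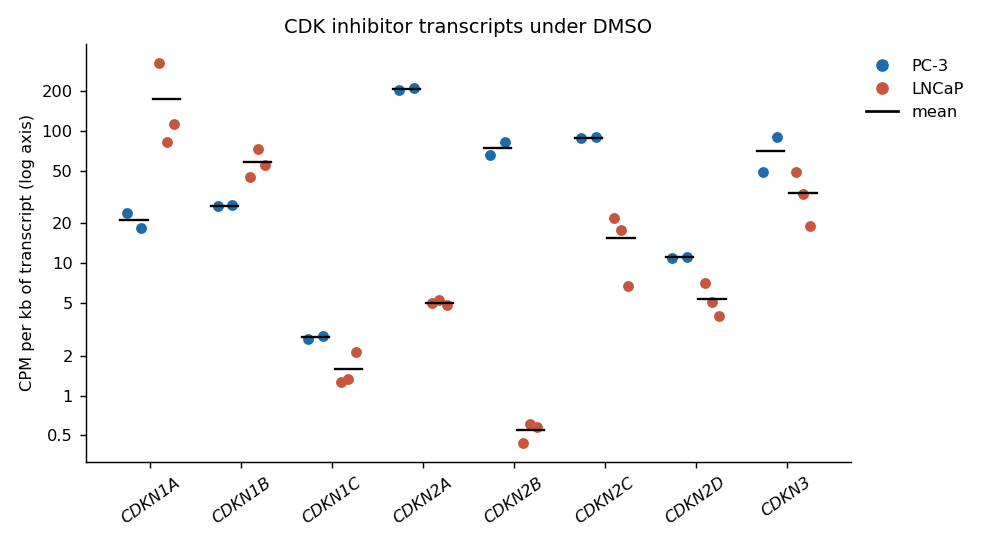
Level of each inhibitor in DMSO controls of PC-3 (n = 2) and LNCaP (n = 3), in CPM per kilobase of the main transcript on a log axis, with 1 point per sample and a line at the mean. CDKN2A and CDKN2B sit far apart between the lines, and CDKN1A lies higher in every LNCaP sample.

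The DMSO groups were compared in 1 edgeR quasi-likelihood fit of both human lines with Benjamini-Hochberg adjustment over 15018 genes. At an adjusted p under 0.001, 3 members were higher in PC-3 and 2 were lower, so 5 of 8 were called, where 40.8% of all genes were. CDKN2B was 136-fold higher in PC-3 (log2 difference 7.08, SE 0.186, adjusted p = 4.66e-14). The LNCaP controls rested on 24, 29 and 29 counts of CDKN2B, against 3692 and 4648 counts in PC-3. CDKN2A was 40.9-fold higher in PC-3 (log2 difference 5.35, SE 0.184, adjusted p = 3.61e-13), with 61 to 70 counts per LNCaP control. LNCaP therefore held both genes above 0. CDKN2C was 5.7-fold higher in PC-3 (adjusted p = 8.90e-07). CDKN1A was 8.17-fold lower in PC-3 (log2 difference -3.03, SE 0.528, adjusted p = 9.17e-05) and CDKN1B 2.13-fold lower (adjusted p = 7.29e-04). Without LNCaP control replicate 1 the CDKN1A difference was -2.20 (adjusted p = 1.48e-04). The CDKN1B call was lost in 11 of 15 fits that left out a sample (adjusted p up to 0.00407) and with DESeq2 size factors (adjusted p = 0.00107). CDKN1C, CDKN2D and CDKN3 differed by 1.74-fold to 2.07-fold, higher in PC-3, and passed only a threshold of 0.05 (adjusted p = 0.0136, 0.00451 and 0.0114), which all 8 members and 63.6% of all genes passed.

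CT1258 showed another gap. CDKN2B had 0 counts in all 9 libraries, which allows a level of up to 0.149 to 0.407 CPM in single libraries and 0.0281 CPM over all of them, by a floor of 3 counts that covers counting error only. The listed neighbours CDKN2B-AS, DMRTA1 and ELAVL2 were also at 0 counts, and IFNE had 1 count in 1 library. Whether canine CDKN2B reads were counted under another name was not tested. CDKN2C was at 41.3 ± 9.96 CPM and CDKN3 at 3.06 ± 0.238 CPM (SD, n = 3) in the controls. CDKN1A, CDKN1B, CDKN1C, CDKN2A and CDKN2D were not analysed here in CT1258, since no row carries their symbol.

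In PC-3, PDA-66 moved the CIP/KIP genes in opposite directions: CDKN1A rose and CDKN1B fell, and CDKN1C kept a low level that did not pass the test. CPM in this and the following comparisons were scaled by TMM within each line. At 12 h, 5 of 8 members passed the adjusted p of 0.001 (1 higher, 4 lower), against 27.6% of 13777 genes. At 24 h the same 5 genes passed in the same directions, against 19.3% of genes. Both times share the 2 controls. The samples of the groups did not overlap in 7 members at 12 h and 5 at 24 h, against 70.9% and 61.9% of all genes. The median log2 fold change of the 8 members was -0.36 at 12 h and -0.26 at 24 h, and -0.01 at both times over all genes.

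CDKN1A was at 49.7 and 38.5 CPM in the PC-3 controls, at 96.9, 90.5 and 101 CPM after 12 h and at 71.2, 75.1 and 79.5 CPM after 24 h. Every treated sample was above both controls, and the 12 h samples were above the 24 h samples. The rise was 2.18-fold at 12 h (log2 1.13, SE 0.12, adjusted p = 5.22e-06) and 1.71-fold at 24 h (log2 0.77, SE 0.119, adjusted p = 1.76e-04). The 24 h call missed the threshold in 1 of 6 fits that left out a sample (adjusted p = 0.00107). An antisense gene, DINOL, overlaps 4.87% of the exon bases of CDKN1A over all its transcripts and none of its main transcript. Whether counting used the strand is not given in the sources used here, so its reads may be included.

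CDKN1B was at 63.5 and 64.9 CPM in the PC-3 controls, between 36.6 and 40.1 CPM at 12 h and between 35.6 and 42.8 CPM at 24 h. All 6 treated samples were below the controls, and the 2 times overlapped. It fell 1.66-fold at 12 h (log2 -0.73, SE 0.104, adjusted p = 6.16e-05) and 1.61-fold at 24 h (log2 -0.69, SE 0.104, adjusted p = 1.47e-04). With only the controls and the 24 h samples in the fit, the 24 h value missed the threshold (adjusted p = 0.00156), as it did with the replicate block (adjusted p = 0.00358). CDKN1C, an imprinted gene, was at 4.66 and 4.96 CPM in the controls and between 4.03 and 5.87 CPM in the treated samples. Its log2 fold change was -0.18 (SE 0.194, adjusted p = 0.45) at 12 h and -0.02 (SE 0.193, adjusted p = 0.931) at 24 h.

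**Figure D2:**
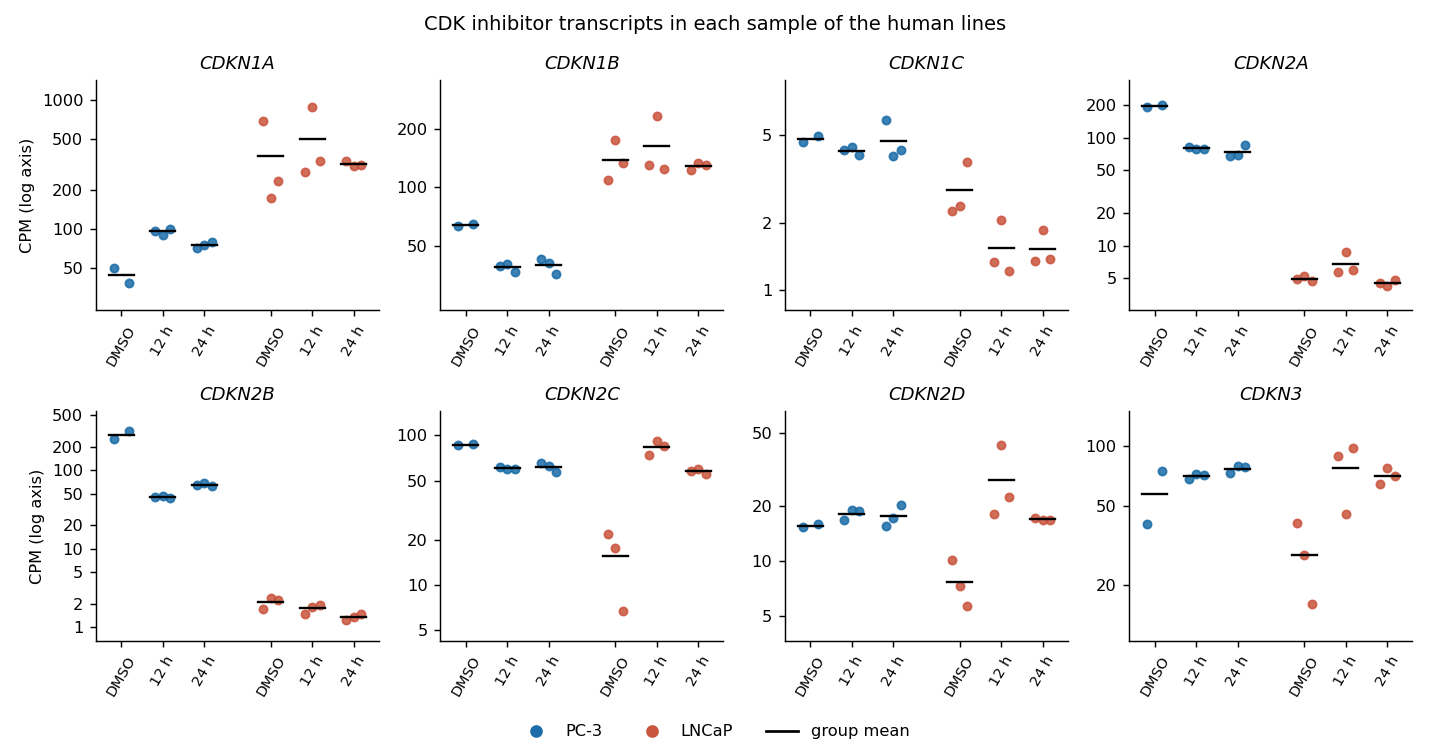
CPM of each of the 8 inhibitors in every sample of PC-3 and LNCaP, on log axes with 1 panel per gene, by treatment; the black line is the group mean. In PC-3, CDKN2B goes from 249 and 312 CPM to between 43.9 and 68.9 CPM, and in LNCaP the CDKN2C controls lie at 6.72 to 22.1 CPM with every treated sample at 55.3 CPM or more.

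Among the INK4 genes of PC-3, 3 of 4 fell and CDKN2D did not pass the test. CDKN2B showed the largest change of any member: 249 and 312 CPM in the controls, then 46, 47.3 and 43.9 CPM at 12 h and 65.3, 68.9 and 63.2 CPM at 24 h. The groups did not overlap, and the 24 h samples lay above those of 12 h. The fall was 6.13-fold at 12 h (log2 -2.62, SE 0.108, adjusted p = 1.30e-09) and 4.26-fold at 24 h (log2 -2.09, SE 0.106, adjusted p = 2.97e-08). CDKN2A, whose counts do not separate p16 from ARF, was at 194 and 203 CPM in the controls, between 77.9 and 82.4 CPM at 12 h and at 68.4, 68.6 and 86.4 CPM at 24 h. Every treated sample was below every control. It fell 2.5-fold (log2 -1.32, SE 0.109, adjusted p = 5.62e-07) and 2.67-fold (log2 -1.42, SE 0.109, adjusted p = 7.12e-07).

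CDKN2B-AS1, the antisense RNA of this locus, was at 11.3 and 12.9 CPM in the PC-3 controls, between 2.26 and 3.52 CPM at 12 h and between 2.5 and 3.67 CPM at 24 h. It fell with its neighbours (log2 -2.10, SE 0.197, adjusted p = 1.66e-06 at 12 h; log2 -1.99, SE 0.196, adjusted p = 5.18e-06 at 24 h). Its exons overlap 15.3% of the exon bases of CDKN2A over all transcripts and none of the main transcript of CDKN2A. Of the 6 neighbours of CDKN2A and CDKN2B in the list, 2 fell and 1 rose at each time, where 27.6% of all genes were called at 12 h and 19.3% at 24 h. IFNE, an interferon gene, fell by 2.16 on the log2 scale at 12 h (adjusted p = 1.30e-04), and ELAVL2, which encodes an RNA-binding protein, rose by 0.98 (adjusted p = 4.39e-05). The nearby metabolic gene MTAP had a log2 fold change of -0.26 (adjusted p = 0.0423), KLHL9 of -0.46 (adjusted p = 0.00388) and DMRTA1 of 0.42 (adjusted p = 0.0601), none past 0.001.

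CDKN2C was at 85.9 and 88 CPM in the PC-3 controls, at 61.6, 59.4 and 59.5 CPM after 12 h and at 65.5, 62.3 and 57.2 CPM after 24 h. All treated samples were lower, with no overlap. The fall was 1.45-fold at 12 h (adjusted p = 3.42e-04) and 1.41-fold at 24 h (adjusted p = 7.98e-04), the smallest of the called changes in PC-3. Leaving out 1 sample took the call away in 4 of 6 fits at 12 h (highest adjusted p 0.0034) and in 6 of 6 at 24 h (adjusted p = 0.00151 to 0.00498). The 24 h call was also lost with library size only, with no filter on low counts, by limma and with only the 2 groups compared (adjusted p = 0.00162 to 0.00922), and the 12 h call by limma (adjusted p = 0.00149). Another gene on the opposite strand overlaps 20.4% of the CDKN2C exon bases over all transcripts and none of the main transcript of CDKN2C. CDKN2D was at 15.3 and 15.8 CPM in the controls and between 15.5 and 20.2 CPM in the treated samples, with log2 fold changes of 0.22 (SE 0.135, adjusted p = 0.183) and 0.18 (SE 0.136, adjusted p = 0.285).

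CDKN3 was at 40.6 and 74.7 CPM in the PC-3 controls, between 68.3 and 72.3 CPM at 12 h and between 73.3 and 79 CPM at 24 h. The controls differed from each other by more than the treated groups did, and replicate 3 overlapped the treated range. The log2 fold change was 0.29 (SE 0.18, adjusted p = 0.18) and 0.41 (SE 0.18, adjusted p = 0.0727). Between the times in PC-3, no member passed 0.001, against 1.41% of genes, and 2 had an unadjusted p under 0.05, against 24.5%. The likelihood ratio test and the DESeq2 Wald test each called 1 member at 0.001 and limma 2, where they called 696, 517 and 2320 genes in all. In edgeR, those with an unadjusted p under 0.05 also passed an adjusted p of 0.05, as 10.1% of genes did: CDKN2B was 0.52 higher (log2, SE 0.0987, adjusted p = 0.00464) and CDKN1A 0.36 lower (log2 -0.36, SE 0.102, adjusted p = 0.0438) at 24 h than at 12 h. With a sample left out, the adjusted p of CDKN2B was 0.0108 to 0.0355, and CDKN1A missed 0.05 in all 6 fits (adjusted p = 0.0503 to 0.187) and with library size only (adjusted p = 0.0503). The changes altered the order of the levels per length. At 12 h CDKN3 (86 ± 2.55 CPM per kb) and CDKN2A (83.2 ± 2.6) overlapped at the top, CDKN1A (46.5 ± 2.65) lay above CDKN2B (12.1 ± 0.462), and CDKN2B overlapped CDKN2D (13 ± 0.91; SD, n = 3).

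**Figure D3:**
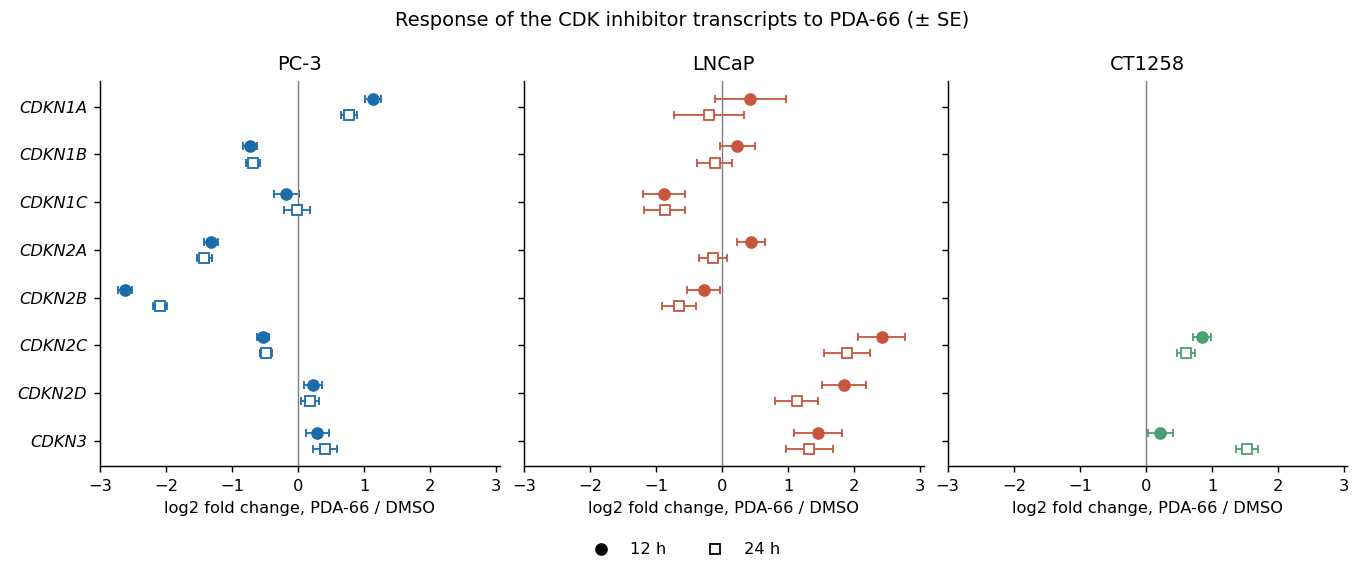
Log2 fold change of each inhibitor against DMSO in PC-3, LNCaP and CT1258, with bars of 1 standard error; filled circles are 12 h and open squares 24 h. In PC-3, CDKN1A lies above 0 and CDKN1B, CDKN2A, CDKN2B and CDKN2C below it, and CDKN2C lies above 0 in LNCaP (2.42 and 1.89) and CT1258 (0.85 and 0.61).

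In LNCaP, CDKN2C, CDKN2D and CDKN3 were higher than in DMSO after 12 h of PDA-66, and CDKN2C after 24 h, by a threshold of 0.05. At 0.001 no member passed at either time, where 1 gene in all (0.00760%) passed at 12 h and 0% at 24 h by the edgeR quasi-likelihood test. By the likelihood ratio test 2 members passed at 12 h and 1 at 24 h, by the DESeq2 Wald test 2 and 1, and by limma 3 and 3. Over all genes these tests called 571, 620 and 1831 at 12 h and 258, 286 and 1473 at 24 h. At an unadjusted p under 0.05 there were 4 members at 12 h and 5 at 24 h, against 30.0% and 19.8% of genes. At the wider threshold 3 of 8 members were higher at 12 h and 1 at 24 h, where 4.52% and 1.35% of 13156 genes were higher and 9.14% and 2.92% passed in either direction. The samples did not overlap in 5 members at each time, against 28.1% and 44.7% of all genes. Fitted per line over all groups, edgeR gave LNCaP a common biological coefficient of variation of 0.24 against 0.0971 for PC-3. By chi-square per degree of freedom, LNCaP replicates differed more than those of PC-3 at 12 h only (7.46 to 216 against 1.93 to 4.59). The values of 216 and 170 both involved LNCaP 12 h replicate 2. At 24 h LNCaP gave 1.85 to 4.33 and PC-3 3.11 to 15.8, and the controls gave 16.4 to 34.5 and 35.1. The median log2 fold change of the members was 0.44 at 12 h and -0.12 at 24 h, against 0.03 and -0.01 over all genes.

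CDKN2C was at 22.1, 17.8 and 6.72 CPM in the LNCaP controls, at 73.6, 91.9 and 84.8 CPM after 12 h and at 57.6, 60.1 and 55.3 CPM after 24 h. The 3 groups did not overlap, and control replicate 3 was far below the other controls. The rise was 5.37-fold at 12 h (log2 2.42, SE 0.356, adjusted p = 0.00798) and 3.71-fold at 24 h (log2 1.89, SE 0.351, adjusted p = 0.0313). At 12 h it stayed under 0.05 in all 9 fits that left out a sample (adjusted p = 9.74e-04 to 0.0342), and with only the 2 groups in the fit it did not (adjusted p = 0.0664). At 24 h the adjusted p ranged from 0.00237 to 0.148 in these fits.

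CDKN2D was at 10.1, 7.32 and 5.64 CPM in the controls of LNCaP, at 18, 42.6 and 22.2 CPM after 12 h and at 17.2, 16.7 and 16.8 CPM after 24 h. Every treated sample was above every control, and the highest value came from 12 h replicate 2, the library that stood apart. It rose 3.58-fold at 12 h (log2 1.84, SE 0.332, adjusted p = 0.0134), and at 24 h the log2 fold change was 1.13 (SE 0.329, adjusted p = 0.0945). The 12 h call was lost without control replicate 2 (adjusted p = 0.059) or replicate 3 (adjusted p = 0.0681), and with only the 2 groups in the fit (adjusted p = 0.0733).

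CDKN3 was at 40.9, 28.2 and 16 CPM in the LNCaP controls, at 89, 45.6 and 98.1 CPM after 12 h and at 64.4, 77.6 and 70.7 CPM after 24 h. No treated sample reached down to the controls, but 12 h replicate 2 lay close to control replicate 1. The rise was 2.73-fold at 12 h (log2 1.45, SE 0.359, adjusted p = 0.0369), and at 24 h the log2 fold change was 1.32 (SE 0.358, adjusted p = 0.0804). The 12 h call held in fits without control replicate 1 or 12 h replicate 2 and was lost without any other sample (adjusted p up to 0.13) and with only the 2 groups in the fit (adjusted p = 0.128), and limma gave 2.09 (adjusted p = 1.30e-06). Without 12 h replicate 2 the log2 fold changes at 12 h were 2.35 for CDKN2C (adjusted p = 9.74e-04), 1.39 for CDKN2D (adjusted p = 0.00127) and 1.72 for CDKN3 (adjusted p = 0.00173). At 24 h the adjusted p without it was 0.00237, 0.00303 and 0.00513 for these genes. This fit called 261 genes at 12 h and 105 at 24 h at 0.001.

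**Figure D4:**
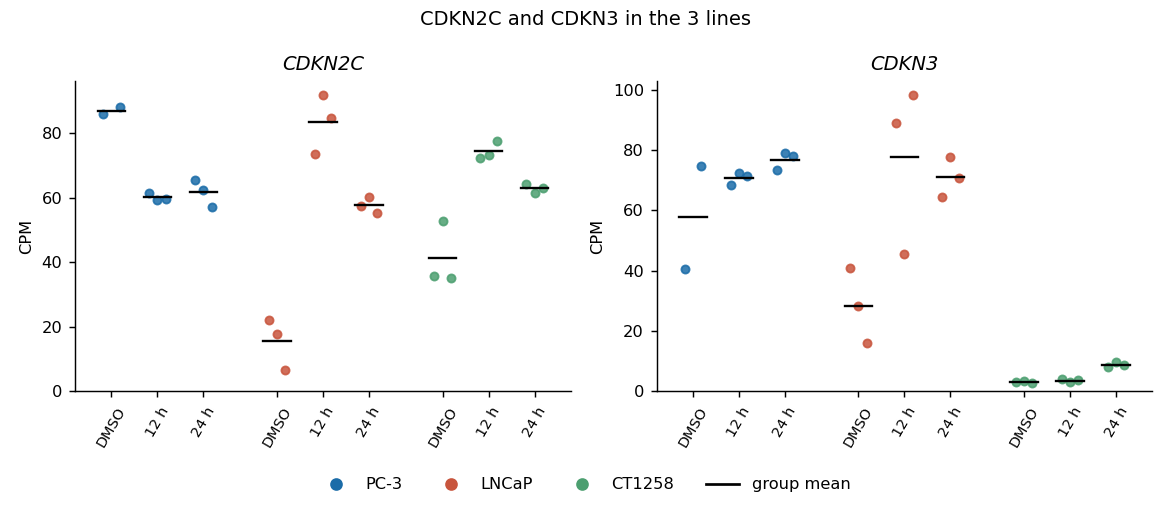
CPM of CDKN2C and CDKN3 in every sample of PC-3, LNCaP and CT1258 by group, on linear axes, with the group mean as a line. CDKN2C lies lower after PDA-66 in PC-3 and higher in LNCaP and CT1258, and CDKN3 in CT1258 is at 2.88 to 4 CPM in DMSO and 12 h samples and at 8.22 to 9.7 CPM at 24 h.

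CDKN1A, the member with the highest level in LNCaP, was at 689, 175 and 237 CPM in the controls, at 278, 872 and 339 CPM after 12 h and at 337, 305 and 315 CPM after 24 h. Control replicate 1 and 12 h replicate 2 were far above their fellow samples, and the groups overlapped. The log2 fold change was 0.43 (SE 0.534, adjusted p = 0.608) at 12 h and -0.20 (SE 0.533, adjusted p = 0.886) at 24 h. Without control replicate 1 the 12 h value was 1.27 (adjusted p = 0.11), and without 12 h replicate 2 it was -0.25 (adjusted p = 0.695). CDKN1B was at 109 to 176 CPM in the controls and 123 to 234 CPM in the treated samples, the 234 CPM again in 12 h replicate 2, with log2 fold changes of 0.23 (adjusted p = 0.589) and -0.11 (adjusted p = 0.875).

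The low members of LNCaP did not pass 0.05 in edgeR with all samples. CDKN1C went from 2.26 to 3.78 CPM in the controls to 1.22 to 2.06 CPM in the treated samples, with no overlap (log2 fold change -0.88, adjusted p = 0.105 at 12 h; -0.87, adjusted p = 0.157 at 24 h), on 17 to 49 counts per sample. For CDKN1C, limma gave -1.25 (adjusted p = 0.00264) at 12 h and -1.01 (adjusted p = 0.00618) at 24 h, and edgeR without 12 h replicate 2 gave -1.13 (adjusted p = 0.0225) and -0.87 (adjusted p = 0.0375). CDKN2A was at 4.71 to 5.18 CPM in the controls, 5.64 to 8.64 CPM at 12 h and 4.25 to 4.75 CPM at 24 h (log2 fold change 0.44, adjusted p = 0.189 at 12 h; -0.14, adjusted p = 0.786 at 24 h). CDKN2B was at 1.69 to 2.39 CPM in the controls and 1.22 to 1.94 CPM in the treated samples, on 18 to 29 counts per sample (log2 fold change -0.28, adjusted p = 0.474 at 12 h; -0.65, adjusted p = 0.19 at 24 h). Between 24 h and 12 h no member of LNCaP passed 0.05 in edgeR, where 0% of genes did, and 1 member, CDKN2A, had an unadjusted p under 0.05, as 6.36% of genes did. No member passed 0.05 by the likelihood ratio test or DESeq2, whereas limma with sample weights gave adjusted p of 0.0433 for CDKN2A, 0.00495 for CDKN2C, 0.0212 for CDKN2D and 0.0103 for CDKN3.

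In CT1258, CDKN2C rose at 12 h and CDKN3 rose at 24 h, and the CDKN2C value at 24 h passed only 0.05. The percentages of all 9886 genes called at 0.001 were 44.3% at 12 h and 33.8% at 24 h, so calls were common in this line, and 1 of the 2 members tested was called at each time. CDKN2C was at 35.7, 52.8 and 35.3 CPM in the controls, at 72.2, 73.3 and 77.6 CPM after 12 h and at 64.2, 61.5 and 63.1 CPM after 24 h. Control replicate 2 was the highest control and still below every treated sample. The rise was 1.8-fold at 12 h (log2 0.85, SE 0.134, adjusted p = 6.66e-05) and 1.52-fold at 24 h (log2 0.61, SE 0.135), where its adjusted p of 0.00138 passed only 0.05. Without control replicate 2, the library that stood apart, CDKN2C gave 1.06 (adjusted p = 3.19e-11) at 12 h and 0.82 (adjusted p = 4.10e-09) at 24 h, both past 0.001, in a fit that called 5567 and 4629 genes in all against 4383 and 3340 with all samples.

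CDKN3 in CT1258 was at 2.98, 3.33 and 2.88 CPM in the controls, at 4, 3 and 3.74 CPM after 12 h and at 8.22, 9.7 and 8.68 CPM after 24 h. The 12 h samples overlapped the controls, and every 24 h sample was above all others. The log2 fold change was 0.22 (SE 0.191, adjusted p = 0.321) at 12 h, on 25 to 30 counts per sample, and CDKN3 rose 2.89-fold at 24 h (log2 1.53, SE 0.165, adjusted p = 3.86e-06), on 64 to 74 counts. Without control replicate 2 these values were 0.28 (adjusted p = 0.251) and 1.59 (adjusted p = 9.89e-08). Between the times it rose 2.48-fold (log2 1.31, SE 0.185, adjusted p = 4.17e-04), where 2.13% of genes were called. This call was lost in 6 of 9 fits that left out a sample (highest adjusted p 0.00476). With the control counts thinned to the mean PDA-66 depth, CDKN2C gave 0.86 (adjusted p = 1.97e-04) at 12 h and CDKN3 1.57 (adjusted p = 1.83e-05) at 24 h. Thinning evens out depth only. Any other difference between the control and PDA-66 libraries of CT1258 cannot be told apart from treatment.

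The response to PDA-66 was then compared between lines, as the difference of the log2 fold changes with a threshold of 0.05. For the human lines all 8 members could be tested in 1 fit of these lines, which was added after the values were seen. At 12 h, 4 members differed, all lower in PC-3, where 6.80% of 15018 genes were lower and 13.7% differed in either direction. At 24 h 3 differed, where 2.51% were lower and 5.99% differed. In this fit with all samples these were INK4 genes. The response of CDKN2C in PC-3 minus that in LNCaP was -2.90 at 12 h (SE 0.383, adjusted p = 1.98e-04) and -2.35 at 24 h (SE 0.383, adjusted p = 0.00209). For CDKN2B it was -2.29 (SE 0.244, adjusted p = 3.85e-05) and -1.41 (SE 0.251, adjusted p = 0.00382), and for CDKN2A -1.70 (SE 0.231, adjusted p = 2.27e-04) and -1.24 (SE 0.235, adjusted p = 0.00505). CDKN2D differed at 12 h by -1.56 (SE 0.38, adjusted p = 0.0128), and at 24 h the difference was -0.92 (adjusted p = 0.185).

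The CIP/KIP genes gave no called difference between the human lines in the fit described above with all samples. CDKN1B at 12 h was called in 5 of 19 alternatives, of which 4 left out a sample. For CDKN1A the difference was 0.75 at 12 h, with a 95% interval from -0.57 to 2.08 and an adjusted p of 0.446. At 24 h it was 1.01, with an interval from -0.32 to 2.34. CDKN1A varied widely within the LNCaP control and 12 h groups, and these intervals do not show like responses. The difference for CDKN1B was -0.90 (interval -1.55 to -0.25, adjusted p = 0.0611) at 12 h and -0.55 (interval -1.20 to 0.10) at 24 h. For CDKN1C it was 0.75 (interval -0.03 to 1.54, adjusted p = 0.183) at 12 h and 0.88 (interval 0.10 to 1.66) at 24 h. CDKN3 gave -1.11 (interval -2.06 to -0.16, adjusted p = 0.108) and -0.87 (interval -1.82 to 0.08, adjusted p = 0.296). Without LNCaP 12 h replicate 2, 7 members were called at 12 h and 5 at 24 h. Calls over all genes rose too, from 2060 to 3647 at 12 h and from 899 to 3132 at 24 h, so the gain was not limited to the members. Those gained at 12 h were CDKN1A (1.42, adjusted p = 0.0443), CDKN1B (-0.56, adjusted p = 0.0489) and CDKN3 (-1.38, adjusted p = 0.00675), and those at 24 h were CDKN1B (-0.55, adjusted p = 0.0492) and CDKN2D (-0.91, adjusted p = 0.0107). At 12 h CDKN1B was also called without LNCaP control replicate 2, 12 h replicate 1 or 12 h replicate 3 (adjusted p = 0.0261 to 0.0336), and CDKN3 without LNCaP control replicate 1 (adjusted p = 0.0329).

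For the 3 lines together, CDKN2C and CDKN3 could be compared over 11736 shared genes. With all samples and no replicate block, CDKN2C responded differently in every pair of lines at both times. PC-3 minus CT1258 gave -1.40 (SE 0.333, adjusted p = 0.00258) at 12 h and -1.11 (SE 0.333, adjusted p = 0.0192) at 24 h, where 30.1% and 21.2% of genes were called. The 24 h call was lost without PC-3 24 h replicate 3 (adjusted p = 0.0596) or CT1258 control replicate 3 (adjusted p = 0.0509). It was also lost with the replicate block (adjusted p = 0.0796). LNCaP minus CT1258 gave 1.52 (SE 0.323, adjusted p = 7.42e-04) and 1.26 (SE 0.323, adjusted p = 0.00771), where 40.2% and 21.1% were called. In the same fit PC-3 minus LNCaP gave -2.92 (SE 0.338, adjusted p = 2.84e-06) and -2.37 (SE 0.338, adjusted p = 9.16e-05), where 19.6% and 9.70% were called. The response of CDKN3 was higher in LNCaP than in CT1258 at 12 h (1.19, SE 0.438, adjusted p = 0.0328). This call was lost in 4 of 24 fits that left out a sample, namely LNCaP control replicate 2 or 3, CT1258 control replicate 2 or CT1258 12 h replicate 2 (adjusted p = 0.0522 to 0.0752). The replicate block also lost it (adjusted p = 0.0754). At 24 h the difference was -0.24 (interval -1.08 to 0.60, adjusted p = 0.773). Between PC-3 and CT1258 it was 0.05 (interval -0.90 to 1.00) at 12 h and -1.13 (interval -2.01 to -0.26, adjusted p = 0.0598) at 24 h. CDKN3 in PC-3 and LNCaP differed by -1.14 (SE 0.385, adjusted p = 0.0398) at 12 h in this fit, a call that was lost in 5 of 24 fits that left out a sample (adjusted p up to 0.0963) and that the fit of the human lines alone did not make.

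Of the kinases and cyclins that the inhibitors bind, 6 of 12 tested rose in PC-3 and 0 fell at 12 h, and 4 rose and 0 fell at 24 h. For this and the following lists, the shares of all genes called in either direction at 12 h and 24 h were 27.6% and 19.3% in PC-3, 44.3% and 33.8% in CT1258 and, at 0.05, 9.14% and 2.92% in LNCaP. The list median was 0.80 and 0.68 on the log2 scale. CCNE1 and CCNE2, the cyclins E that activate CDK2, rose by 2.41 and 1.70 at 12 h (adjusted p = 2.74e-06 and 6.49e-05). CDK2 rose by 0.99 (84.4 ± 8.08 to 168 ± 9.17 CPM, adjusted p = 1.05e-05). The INK4 partners CDK4 and CDK6 gave -0.21 (adjusted p = 0.0809) and 0.55 (adjusted p = 0.00783) in PC-3 at 12 h, and their cyclin CCND1 -0.02 (adjusted p = 0.84). The mitotic kinase CDK1 gave 0.21 in PC-3 at 12 h (adjusted p = 0.249). In LNCaP 5 of 11 rose at 12 h and 2 at 24 h by the 0.05 threshold. There CDK1 rose by 1.82 (adjusted p = 0.015) and CDK2 by 1.25 (adjusted p = 0.0087) at 12 h. In CT1258, 7 of 12 rose and 3 fell at 12 h, and 5 rose and 3 fell at 24 h. The mitotic cyclin CCNB1 rose there by 3.01 (adjusted p = 4.13e-10), and CDK6 and CCND1 fell by 0.95 (adjusted p = 1.05e-04) and 0.63 (adjusted p = 1.58e-05). CDK1 and CDK2 rose in CT1258 as well, by 1.81 (adjusted p = 2.58e-08) and 1.03 (adjusted p = 5.51e-07) at 12 h.

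Of the retinoblastoma family and E2F factors, through which the inhibitors act on transcription, 6 of 13 rose and 1 fell in PC-3 at 12 h, and 6 rose at 24 h, against 27.6% and 19.3% of genes called. E2F7 rose by 1.07 (adjusted p = 2.45e-06) and RBL1 by 0.92 (adjusted p = 2.42e-04), and RBL2 fell by 0.62 (adjusted p = 1.66e-04). RB1 itself gave 0.61 in PC-3 (adjusted p = 0.00326). In LNCaP 3 of 13 rose at 12 h and 2 at 24 h by the 0.05 threshold, among them E2F1 by 1.89 (adjusted p = 0.00784) and E2F2 by 1.58 (adjusted p = 0.0135). In CT1258, 6 of 12 rose and 2 fell at 12 h, and 3 rose at 24 h, with E2F8 up by 1.98 (adjusted p = 6.27e-08).

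The ubiquitin ligase parts that turn over p21, p27 and p57 included SKP2, the receptor for p27, which rose in all 3 lines at 12 h. It went from 22.6 ± 3.39 to 70.9 ± 5.13 CPM in PC-3 (log2 1.65, adjusted p = 1.89e-06). In LNCaP it went from 41.2 ± 6.22 to 94.1 ± 5.19 CPM (log2 1.19, adjusted p = 0.00726, past 0.05 only). In CT1258 it went from 24.2 ± 2.75 to 64.3 ± 3.87 CPM (log2 1.41, adjusted p = 1.40e-07). At 24 h it was at 63.9 ± 11.5 CPM in PC-3 (adjusted p = 7.90e-06) and 84.2 ± 6.15 CPM in LNCaP (log2 1.03, adjusted p = 0.0198), and in CT1258 at 30.7 ± 3.33 CPM (log2 0.35, adjusted p = 0.0185), not past 0.001. The cofactor of SKP2, CKS1B, gave 0.24 in PC-3 (adjusted p = 0.0858) and rose by 0.69 in LNCaP (adjusted p = 0.0359) at 12 h. Over the list, 2 of 12 rose and 0 fell in PC-3 at 12 h and 1 rose at 24 h, beside 27.6% and 19.3% of genes called. In CT1258 4 of 10 rose and 2 fell at 12 h, beside 44.3% of genes, and in LNCaP 3 of 12 rose by the 0.05 threshold. At 24 h 2 rose and 2 fell in CT1258, and 2 rose in LNCaP.

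Of the transcriptional regulators of the inhibitors, 2 of 14 rose and 3 fell in PC-3 at 12 h, and 2 rose and 2 fell at 24 h, near the background of 27.6% and 19.3%. MYC, which represses CDKN1A and CDKN2B, fell by 1.76 on the log2 scale (759 to 224 CPM, adjusted p = 9.53e-09). The Polycomb genes BMI1 and EZH2, whose products repress CDKN2A, rose by 1.17 (adjusted p = 2.23e-05) and 0.80 (adjusted p = 5.24e-05). FOXO4, a forkhead factor, fell by 0.90 (adjusted p = 9.10e-05). In LNCaP 3 of 14 fell at 12 h by the 0.05 threshold, with KLF4 down by 1.58 (adjusted p = 0.0139), and 0 were called at 24 h. In CT1258, 1 of 13 rose and 4 fell at 12 h and 5 fell at 24 h, beside 44.3% and 33.8% of genes, with KLF4 down by 1.51 (adjusted p = 2.18e-07).

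Among senescence markers, a state in which CDKN1A and CDKN2A are often high, 9 of 13 rose and 2 fell in PC-3 at 12 h, and 5 rose and 2 fell at 24 h, against 27.6% and 19.3% of genes called. The list mixes genes that are high in senescence with LMNB1, HMGB1 and HMGB2, whose products are known to be lost or low in it, so its counts give no single direction. The members that rose included secreted factors, with CXCL1 up by 3.36 (1.14 to 11.8 CPM, adjusted p = 1.05e-07) and IL1A by 3.13 (1.31 to 11.5 CPM, adjusted p = 1.62e-06). HMGB1, a chromatin protein, rose by 0.66 in PC-3 (adjusted p = 7.75e-04), and its relative HMGB2 by 1.06 in LNCaP (adjusted p = 0.0382). LMNB1, a lamin of the nuclear envelope, rose by 0.75 in PC-3 (adjusted p = 2.51e-05), by 1.61 in LNCaP (adjusted p = 0.0163) and by 1.01 in CT1258 (adjusted p = 1.22e-07). GDF15, a stress cytokine, fell by 2.84 in PC-3 (1265 to 177 CPM, adjusted p = 9.34e-09) and by 2.14 in LNCaP (adjusted p = 0.00817). In LNCaP 3 of 6 rose at 12 h by the 0.05 threshold (LMNB1, HMGB2 and IGFBP3) and 1 fell, and in CT1258 2 of 4 rose (LMNB1 and MMP1) and 1 fell. At 24 h 1 rose and 1 fell in LNCaP, and 3 rose and 1 fell in CT1258.

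Around CDKN1C, 5 imprinted or neighbouring genes were tested in PC-3, of which 1 rose and 3 fell at 12 h, against 27.6% of genes called, while CDKN1C did not pass the test. At 24 h 1 rose and 1 fell, against 19.3%, with SLC22A18 (adjusted p = 0.00312) and CARS (adjusted p = 0.00219) past 0.05 only. KCNQ1OT1, the non-coding RNA of the domain, fell by 1.45 (14 to 5.14 CPM, adjusted p = 3.66e-04) and SLC22A18, a transporter gene, by 1.39 (adjusted p = 1.36e-05), and NAP1L4, a histone chaperone, rose by 0.59 (adjusted p = 1.87e-04). In CT1258 2 of 3 fell, SLC22A18 by 2.05 (adjusted p = 1.01e-05) and CARS by 1.61 (adjusted p = 2.86e-08). In LNCaP 1 of 6 rose and 1 fell by the 0.05 threshold. At 24 h 2 fell in CT1258 and 1 in LNCaP.

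Over the 26 samples, the 8265 genes compared held some with a pattern close to that of CDKN2C or CDKN3, as a description across samples that share lines and libraries. Each gene was taken as log2 CPM minus the mean of the DMSO group of its line. Pearson's r with CDKN2C was 0.96 for CNTRL, a centriole gene, 0.93 for METTL21A and 0.92 for the histone demethylase gene KDM1A. Within lines, r with CNTRL was 0.51 for the PC-3 samples, 0.97 for LNCaP and 0.72 for CT1258, and r with KDM1A was 0.20, 0.96 and 0.57. For CDKN3, r was 0.94 with UBE2T, a ubiquitin-conjugating enzyme of DNA repair, 0.93 with CENPA, the centromeric histone, and 0.92 with the mitotic kinesin KIF20A. Within lines, r of CDKN3 with UBE2T was 0.79 for the PC-3 samples, 0.99 for LNCaP and 0.94 for CT1258, and with KIF20A 0.52, 0.97 and 0.95.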

How the data were processed

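RNA was poly(A)-selected and sequenced as single reads. Per the study's methods, STAR 2.3.1s aligned the human reads to HG19 and BWA the canine reads to CanFam3.1. The deposited files hold whole-number counts of reads per gene, not normalized, and 26 samples had counts. The handling of strand and of reads with several hits is not given in the sources used here. The labels of 2 PC-3 12 h samples leave their replicate number unclear.

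Counts were tested with edgeR 4.0.16 in R 4.3.3: genes were filtered with filterByExpr (minimum count 10), normalized by TMM, fitted per line over 3 groups and tested by the quasi-likelihood F test with Benjamini-Hochberg adjustment over all genes tested. The threshold was 0.001, the study's, and 0.05 for differences between lines and, named as such, for LNCaP. A log2 fold change and its standard error come from this fit. Differences between lines were tested as interactions in joint fits. The p-values measure the spread between the samples deposited. The scripts were tested on simulated data.

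The 8 members and all lists were chosen with earlier results of these data known. Members were named in every comparison. Per list and line, up to 2 genes with the largest rise and 2 with the largest fall at 12 h could be named, with SKP2, CKS1B, RB1, CDK1, CDK2, CDK4, CDK6 and CCND1, and the genes around CDKN2A were named in full after their values were seen. Some genes and a list that the rule or the marker lists name are not reported here. The genes most like CDKN2C and CDKN3 were the 3 with the highest Pearson's r.

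The alternatives replaced TMM by DESeq2 size factors or by the library size alone, dropped the filter, or used the likelihood ratio test, the DESeq2 1.42.0 Wald test, limma 3.58.1 voom with sample quality weights, only the groups or lines compared, a replicate block, another threshold and leaving out each sample. CT1258 control counts were also thinned. The fit of the human lines for the response was added after seeing the data. Figures were drawn with Python 3.11.15.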

Additional observations from a re-analysis of the deposited data

Results flagged for a closer look

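These results stand here because the response to PDA-66 differed between cell lines by an interaction test in edgeR at an adjusted p under 0.05. CDKN2C differed in every pair of lines with all samples and no replicate block. Its log2 fold change in PC-3 minus that in LNCaP was -2.90 at 12 h and -2.35 at 24 h. In PC-3 minus CT1258 it was -1.40 and -1.11, the latter not called without PC-3 24 h replicate 3 (adjusted p = 0.0596) or CT1258 control replicate 3 (adjusted p = 0.0509). The replicate block did not call the latter either (adjusted p = 0.0796). In LNCaP minus CT1258 the CDKN2C difference was 1.52 and 1.26. CDKN2B differed between PC-3 and LNCaP by -2.29 at 12 h and -1.41 at 24 h, and CDKN2A by -1.70 and -1.24. CDKN2D differed by -1.56 at 12 h, and CDKN3 in LNCaP minus CT1258 by 1.19 at 12 h, a call lost in 4 of 24 fits that left out a sample (adjusted p = 0.0522 to 0.0752). The replicate block also lost this CDKN3 call (adjusted p = 0.0754). CDKN3 in PC-3 minus LNCaP was called at 12 h in the fit of 3 lines (-1.14, lost in 5 of 24 fits that left out a sample) and not in that of the human lines. The comparisons at 12 h and 24 h share their controls. Without LNCaP PDA-66 12 h replicate 2, 7 members were called between the human lines at 12 h and 5 at 24 h, and with all samples 4 and 3. Calls over all genes rose in the same fits, from 2060 to 3647 at 12 h and from 899 to 3132 at 24 h. The members gained were CDKN1A, CDKN1B and CDKN3 at 12 h and CDKN1B and CDKN2D at 24 h.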

How the results depend on the processing

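At a threshold of 0.05 in place of 0.001, the members called were 2 in PC-3 between 24 h and 12 h, 3 in LNCaP at 12 h and 1 at 24 h, 2 in CT1258 at 24 h, and 8 between the DMSO groups of PC-3 and LNCaP. For the response, a threshold of 0.001 left 1 for PC-3 minus LNCaP at 24 h over 3 lines and 0 in the fit of the human lines, 0 for PC-3 minus CT1258 at both times, and 1 at 12 h and 0 at 24 h for LNCaP minus CT1258. The likelihood ratio test called 1 in PC-3 between the times, 2 and 1 in LNCaP at 12 h and 24 h, 2 in CT1258 at 24 h and 2 for PC-3 minus CT1258 at 24 h. The DESeq2 Wald test called 1, 2, 1 and 2 in the first 4 of these, and limma 2, 3, 3 and 2. CT1258 at 24 h also gave 2 with library size only and with no filter, and PC-3 minus CT1258 at 24 h 2 with DESeq2 size factors and with only these lines. With only the groups compared, PC-3 gave 3 at 24 h and 1 between the times. The cause of these moves was not tested.

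Whether same-numbered replicates were handled together is not known. Same-numbered samples deviated together in some pairs and not in others. This cannot settle it, since deviations from the mean of so small a group are tied to each other. With the replicate block, PC-3 at 24 h gave 3 members, CT1258 between the times 0, PC-3 minus CT1258 at 24 h 0 and LNCaP minus CT1258 at 12 h 1. The adjusted p under the block was 0.00358 for CDKN1B and 0.0393 for CDKN2C in PC-3 at 24 h, 0.0796 for CDKN2C in PC-3 minus CT1258 at 24 h and 0.0754 for CDKN3 in LNCaP minus CT1258 at 12 h. In LNCaP it was 0.03 for CDKN2C and 0.0838 for CDKN3 at 12 h and 0.083 for CDKN2C at 24 h. The block could not be fitted for PC-3 at 12 h.

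Leaving out each sample gave 4 to 5 members in PC-3 at 12 h, 3 to 4 at 24 h, 0 to 1 in LNCaP at 12 h, 1 to 2 in CT1258 at 24 h and 0 to 1 between its times. For the response it gave 2 to 3 for PC-3 minus LNCaP at both times, 4 to 7 and 3 to 5 in the fit of the human lines, 0 to 2 for PC-3 minus CT1258 at 24 h and 1 to 2 for LNCaP minus CT1258 at 12 h, and 4 to 7 between the DMSO groups.

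Every value that changed its sign belonged to a change that was not called. CDKN1C in PC-3 at 24 h was 0.06 with library size only, 0.01 with no filter and -0.22 to 0.08 with a sample left out. Between the PC-3 times, leaving out a sample gave -0.02 to 0.11 for CDKN1B, -0.03 to 0.26 for CDKN1C, -0.01 to 0.09 for CDKN2C and -0.15 to 0.05 for CDKN2D. In LNCaP at 12 h CDKN1B was -0.16 with limma and -0.12 to 0.43 with a sample left out, and CDKN1A -0.25 to 1.27. At 24 h CDKN1A was 0.30 with limma and -0.54 to 0.63, and CDKN1B -0.26 to 0.09. Between the LNCaP times CDKN1C was -0.01 with DESeq2 size factors and with its Wald test and -0.16 to 0.26, CDKN1B 0.04 with limma and -0.50 to 0.02, CDKN1A -0.93 to 0.05 and CDKN3 -0.40 to 0.07. For the response, CDKN3 was -0.00 with DESeq2 size factors and -0.03 to 0.20 in PC-3 minus CT1258 at 12 h and -0.53 to 0.21 in LNCaP minus CT1258 at 24 h, and CDKN1A was -0.08 to 1.42 between the human lines at 12 h. Counts of 17 to 49 per sample limit CDKN1C and CDKN2B in LNCaP, and counts of 25 to 74 limit CDKN3 in CT1258.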
